A study of Mus musculus with 6 samples.

Results

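The genes described here are 10 core members of the Nrf2 antioxidant pathway: Nfe2l2, which encodes the transcription factor Nrf2, its inhibitor gene Keap1, and the 8 target genes Gclc, Gclm, Slc7a11, Gsr, Txnrd1, Srxn1, Nqo1 and Hmox1. They were chosen by name from the 17658 genes named on the array, with earlier results of these data known. The lists of related genes below were chosen likewise. Counts set beside the share of all genes are therefore descriptive and no independent support. Every probe annotated to the members was taken, which gave 20 probes. Of these, 12 probes of 8 genes were above background on at least 2 of the 6 arrays and were tested. The samples were total RNA of mouse embryonic fibroblasts, connective tissue cells cultured from the embryo, each read on 1 Illumina bead array. There were 3 groups of 2 arrays: reconstituted cells, labelled IKKa+/+reconstituted; IKKa-null cells, labelled IKKa-/-; and wild-type cells. IKKa is a kinase subunit of the complex that activates NF-kappaB. All cells were in medium with 10% FCS and the labels name no drug or other agent. The labels do not state how IKKa was put back, whether a line is 1 clone, or whether a group's arrays are separate cultures. The p-values below therefore measure the spread between these arrays alone, which may be technical.

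Nrf2 is made continually and is handed to a Cul3 ubiquitin ligase by Keap1, which keeps its level low in unstressed cells. Oxidants and electrophiles modify Keap1, and Nrf2 then accumulates, pairs with small Maf proteins and binds antioxidant response elements near its target genes. The targets make and recycle glutathione, reduce thioredoxin and peroxiredoxins, and detoxify quinones and haem.

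The 3 groups differed in more than the genotype they are named for. Signal for SV40 large T, the viral protein used to immortalise cells, was 212.3 and 203.2 intensity units on the reconstituted arrays, 88.6 and 111.8 on the IKKa-null arrays, which is within background, and 4431.6 and 6076.1 on the wild-type arrays. The neomycin resistance target read 3458.1 and 2638.1 on the reconstituted arrays, 2433.1 and 2230.7 on the IKKa-null arrays, and 106.5 and 117.8, within background, on the wild-type arrays. The Moloney virus LTR target read 292.0 and 219.5 on the reconstituted arrays, 3260.7 and 3524.9 on the IKKa-null arrays, and 94.1 and 119.2, within background, on the wild-type arrays. Xist, which coats an inactivated X chromosome, was within background in IKKa-null and reconstituted cells. It was tested only because it was above background in wild-type cells. Xist was at least 5.84-fold lower in IKKa-null cells than in wild-type cells and at least 5.04-fold lower in reconstituted than in wild-type cells. Of 10 fibroblast markers, 8 and 8 were above background on the reconstituted arrays, 9 and 9 on the IKKa-null arrays, and 8 and 6 on the wild-type arrays; each of the 6 marker lists of other cell types had between 0 and 2 members above background on any array. Thy1, a fibroblast surface protein, was 39.6-fold higher in reconstituted than in IKKa-null cells (limma adjusted p = 0.000432), and the growth factor receptor gene Pdgfra was 18.5-fold higher (adjusted p = 7.4e-05). Among markers of other cell types, the epithelial keratin gene Krt14 was 3.63-fold lower (adjusted p = 0.00081), the endothelial receptor gene Flt1 3.88-fold lower (adjusted p = 0.000907) and the muscle troponin gene Tnnt2 at least 5.75-fold lower (adjusted p = 0.00106) in IKKa-null than wild-type cells. The construct signals, Xist and these markers thus move with genotype, and their part in the results below cannot be told apart from that of IKKa. Between 19.99% and 24.05% of targets were above background, the lowest share being on reconstituted array 2. No probe is annotated to Chuk, the gene of IKKa, so the genotype itself is not analysed here.

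Nrf2 can bind near the start of a target gene or farther from it. Only windows from 250 bases before to 50 bases after the start were read, for members that RefSeq covers in the table used (GRCm38.p6). These were 9 windows of 7 members, some with several starts, and Hmox1, Gclc and Gsr were not matched. The core of the antioxidant response element, TGACNNNGC, was sought on both strands. Only this string was sought, so variant forms of the element are not marked and may be present. Elements outside the windows were not sought and may be present too. The string was in 4 of the 9 windows, and in 4071 of all 32851 promoter windows of the same length, which is 12.4%. Shown are the members called in the tests below that have a window, with the Txnrd1 start that holds the string. Gclm, which was not called, is shown for comparison. Capitals mark the string as read on the strand shown.
Srxn1, chr2:152105274-152105573, plus strand: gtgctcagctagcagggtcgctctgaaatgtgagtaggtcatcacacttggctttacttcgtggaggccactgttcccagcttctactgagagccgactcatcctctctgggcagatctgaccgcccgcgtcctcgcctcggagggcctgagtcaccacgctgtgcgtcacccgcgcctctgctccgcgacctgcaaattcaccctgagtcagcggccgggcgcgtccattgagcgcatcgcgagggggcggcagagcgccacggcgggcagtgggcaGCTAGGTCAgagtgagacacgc
Txnrd1 (start 2), chr10:82858956-82859255, plus strand: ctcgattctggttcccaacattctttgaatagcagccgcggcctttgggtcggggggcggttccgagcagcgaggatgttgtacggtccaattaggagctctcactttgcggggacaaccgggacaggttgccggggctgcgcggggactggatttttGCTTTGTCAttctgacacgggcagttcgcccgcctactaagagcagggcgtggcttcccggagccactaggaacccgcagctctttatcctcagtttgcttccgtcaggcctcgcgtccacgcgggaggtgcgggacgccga
Nqo1, chr8:107403156-107403455, minus strand: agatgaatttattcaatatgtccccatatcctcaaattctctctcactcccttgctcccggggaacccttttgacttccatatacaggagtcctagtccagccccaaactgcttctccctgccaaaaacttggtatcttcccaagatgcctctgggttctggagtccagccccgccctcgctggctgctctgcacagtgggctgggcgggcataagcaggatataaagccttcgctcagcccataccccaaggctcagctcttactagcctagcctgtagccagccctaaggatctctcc
Gclm, chr3:122245307-122245606, plus strand: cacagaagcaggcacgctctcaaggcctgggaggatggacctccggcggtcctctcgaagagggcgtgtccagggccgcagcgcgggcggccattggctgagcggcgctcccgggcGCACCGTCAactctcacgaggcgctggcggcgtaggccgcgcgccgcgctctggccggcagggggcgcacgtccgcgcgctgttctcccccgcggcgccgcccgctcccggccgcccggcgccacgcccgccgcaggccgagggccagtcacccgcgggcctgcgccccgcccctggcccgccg
In all 3 windows with capitals the string lies on the opposite strand, as TGACCTAGC in Srxn1, TGACAAAGC in Txnrd1 and TGACGGTGC in Gclm. Its first base in the printed direction is 29 bases after the start of Srxn1, 92 bases before this start of Txnrd1 and 134 bases before the start of Gclm. The remaining match was in the Nfe2l2 window, TGACTCCGC on the gene's own strand, 240 bases before the start. The letters are not in the Nqo1 window, nor in the Keap1 and Slc7a11 windows or those of the other 2 starts of Txnrd1. A match is a description of the sequence and no evidence of binding in these cells.

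Srxn1, Nqo1 and Hmox1 were higher in IKKa-null cells than in wild-type cells, by 2.75-fold, 2.62-fold and 1.84-fold. In reconstituted cells, Hmox1 was 2.06-fold lower and Txnrd1 2.22-fold lower than in IKKa-null cells. The gene for Nrf2 itself was not called in any comparison, and neither were the glutathione genes Gclm and Gsr. Signals below are log2 normalized signals, with 1 probe for each gene, the brightest one tested. Differences are log2 changes from limma with 95% confidence intervals and Benjamini-Hochberg adjustment over 11658 probes, and a change was called at an adjusted p under 0.05. RNA was measured in bulk, so fewer cells with a transcript and less of it in each cell cannot be told apart.

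**Figure D1:**
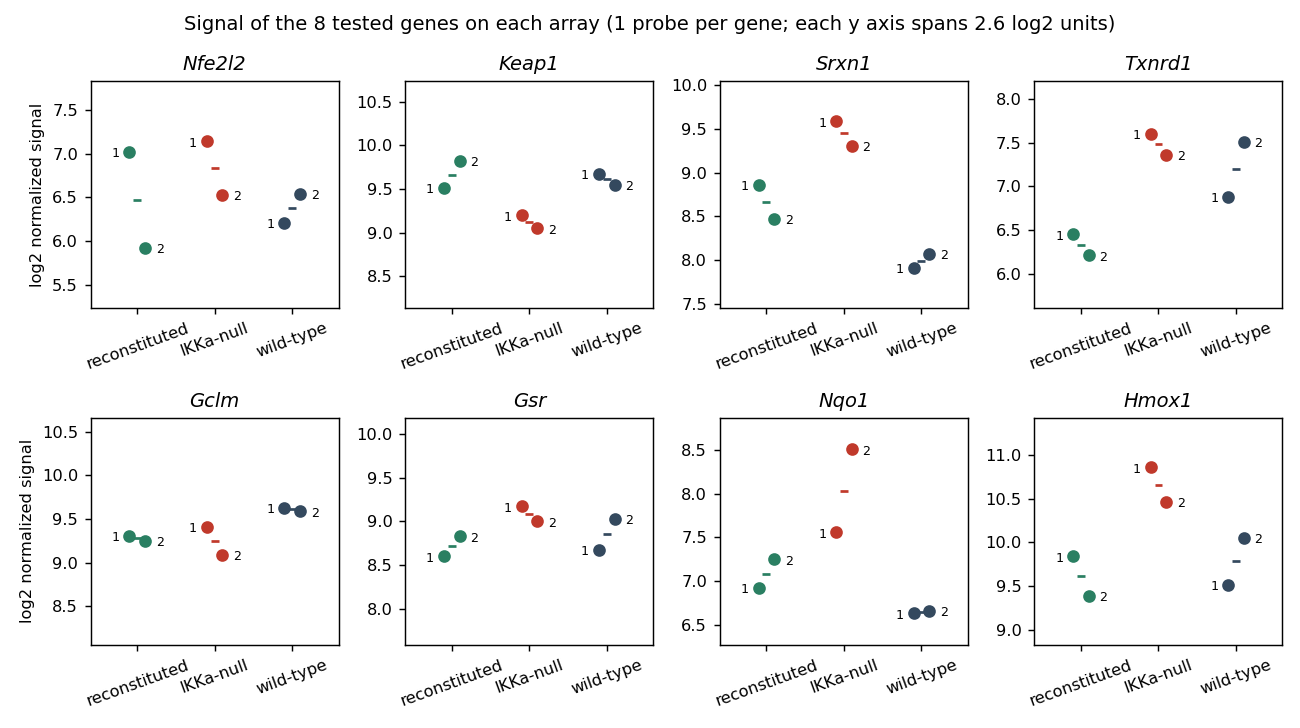
Log2 normalized signal of the 8 tested genes on each array, with groups on the horizontal axis. Points are arrays numbered by replicate and short bars are means of 2 arrays. The IKKa-null arrays stand above the others for Srxn1, Nqo1 and Hmox1, and the reconstituted arrays below the others for Txnrd1.

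In the comparison of IKKa-null with wild-type cells, 3 of the 8 tested genes were called higher and 0 lower, beside 29.0% of all 7407 tested genes called, 13.6% higher and 15.4% lower. With limma at an unadjusted p under 0.05 the counts were 3 higher and 1 lower, the last being Keap1. The groups did not overlap for 5 of the 8 genes, as they did not for 70.4% of all genes. The median change of the 8 was 0.36, against −0.12 over all genes. Leaving out 1 array at a time gave between 1 and 3 called members, with 1 left without either wild-type array or without IKKa-null array 2.

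Between reconstituted and IKKa-null cells, 0 of the 8 were called higher and 2 lower, beside 14.3% of all genes called, 6.89% higher and 7.41% lower. At an unadjusted p under 0.05 the limma counts were 1 higher, Keap1, and 4 lower, which adds Srxn1 and Nqo1. The groups did not overlap for 6 of the 8, against 60.1% of all genes. The median change was −0.58, against −0.02 over all genes. Leaving out 1 array at a time gave between 0 and 1 called members. Between reconstituted and wild-type cells, 1 was called higher and 1 lower, beside 36.9% of all genes called, 15.6% higher and 21.3% lower. The groups did not overlap for 4 of the 8, against 71.9%, the median change was −0.04, against −0.14, and 0 to 1 were called without 1 array. The 3 comparisons share arrays, so an IKKa-null array that reads high raises one difference and lowers another.

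**Figure D2:**
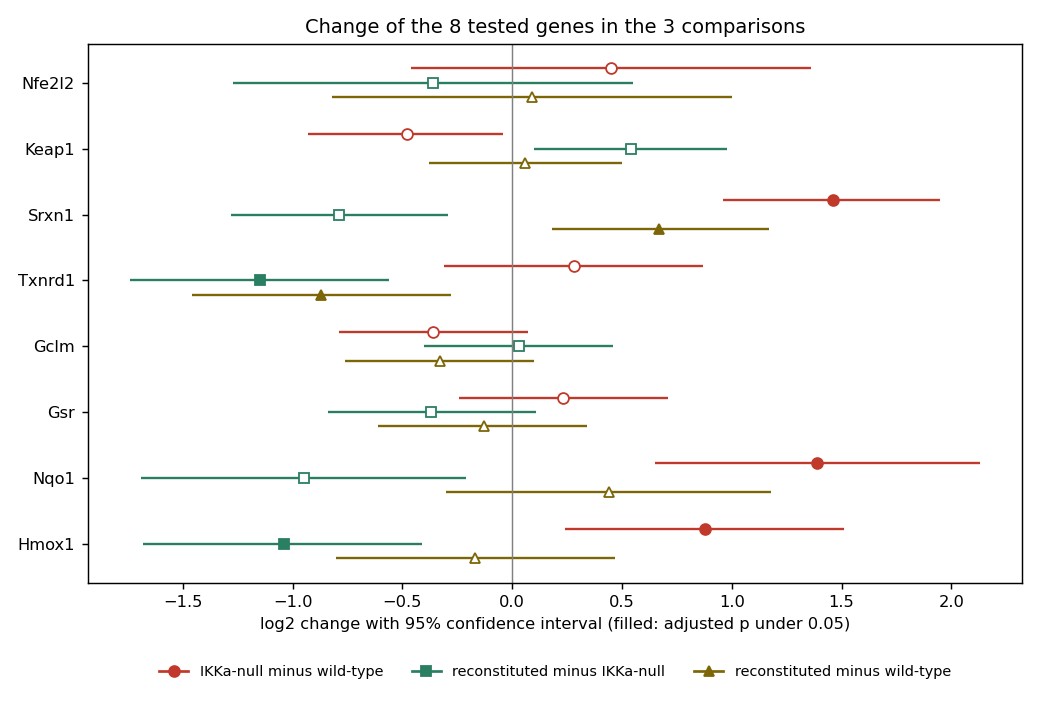
Log2 change of the 8 tested genes in the 3 comparisons on the horizontal axis, with 95% confidence intervals; filled symbols have an adjusted p under 0.05. The 7 filled symbols are Srxn1, Nqo1 and Hmox1 in IKKa-null cells against wild-type cells, Txnrd1 and Hmox1 in reconstituted cells against IKKa-null cells, and Srxn1 and Txnrd1 in reconstituted cells against wild-type cells.

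Of the regulators, Nfe2l2 read 7.02 and 5.92 on the reconstituted arrays, 7.14 and 6.53 on the IKKa-null arrays and 6.21 and 6.54 on the wild-type arrays. The signal was dim, above background on 1 reconstituted, 2 IKKa-null and 1 wild-type array, and the reconstituted arrays spanned nearly the whole range. The change was 0.45 in IKKa-null cells against wild-type cells (interval −0.46 to 1.36, adjusted p = 0.407 in limma), so these arrays allow a rise of well over 2-fold as well as a fall. It was −0.36 in reconstituted cells against IKKa-null cells (interval −1.27 to 0.55) and 0.09 in reconstituted cells against wild-type cells (adjusted p = 0.864). A second Nfe2l2 probe was within background on all 6 arrays. Nrf2 is controlled mainly at the level of its protein, which these arrays do not measure.

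Keap1 was measured by 3 tested probes, and 1 more was within background on all arrays. The brightest read 9.51 and 9.82 on the reconstituted arrays, 9.20 and 9.05 on the IKKa-null arrays and 9.67 and 9.55 on the wild-type arrays. The second read 8.32 and 8.35 on the reconstituted arrays, 7.94 and 7.96 on the IKKa-null arrays and 8.53 and 8.44 on the wild-type arrays, and the third 8.16 and 8.07 on the reconstituted arrays, 7.73 and 7.52 on the IKKa-null arrays and 8.29 and 8.14 on the wild-type arrays. On every probe both IKKa-null arrays were the lowest of the 6. In IKKa-null cells against wild-type cells the changes were −0.48 (interval −0.93 to −0.04, adjusted p = 0.0947), −0.54 (adjusted p = 0.046) and −0.59 (adjusted p = 0.0445) in limma, so the dimmer 2 probes passed the test, by 1.45-fold and 1.51-fold, and the brightest did not. Each of these calls was lost without any 1 of the 6 arrays, with changes of −0.49 to −0.58 and adjusted p of 0.0562 to 0.17 for the second probe and −0.48 to −0.70 and 0.0541 to 0.205 for the third. The mean of the 3 probes gave −0.54 with an adjusted p of 0.0384. In reconstituted cells set against IKKa-null cells the brightest probe changed by 0.54 (interval 0.10 to 0.98, adjusted p = 0.109), and against wild-type cells by 0.06 (adjusted p = 0.826); no Keap1 probe was called in either.

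Srxn1 encodes sulfiredoxin, which repairs peroxiredoxins that have been over-oxidised. Its brightest probe read 8.86 and 8.47 on the reconstituted arrays, 9.59 and 9.31 on the IKKa-null arrays and 7.91 and 8.07 on the wild-type arrays. The 3 groups did not overlap, with IKKa-null cells at the top, wild-type cells at the bottom and reconstituted cells between them. The change in IKKa-null cells against wild-type cells was 1.46 ± 0.209 (SE, n = 2 arrays in each group; interval 0.96 to 1.95; 2.75-fold higher; limma adjusted p = 0.00354). The call held in 16 of 16 alternatives, with changes between 1.03 and 1.60. Between reconstituted and IKKa-null cells the change was −0.79 (interval −1.28 to −0.29) and narrowly missed the threshold at an adjusted p of 0.0521 in limma; the mean of its 3 probes gave −0.76 and an adjusted p of 0.0296. For reconstituted relative to wild-type cells it was 0.67 (interval 0.18 to 1.17, 1.59-fold higher, limma adjusted p = 0.0432). This call held in 8 of 16 alternatives, with changes between 0.27 and 0.87. It was lost with the mean of the 3 probes, median scaling or no filter on dim probes.

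The other 2 Srxn1 probes were also higher in IKKa-null cells than in wild-type cells, but neither was called between reconstituted and wild-type cells. The second probe read 8.07 and 7.76 on the reconstituted arrays, 8.62 and 8.53 on the IKKa-null arrays and 7.59 and 7.73 on the wild-type arrays. The third read 7.11 and 7.13 on the reconstituted arrays, 8.15 and 7.75 on the IKKa-null arrays and 7.25 and 7.18 on the wild-type arrays, so that on it both reconstituted arrays lay below both wild-type arrays. In IKKa-null cells against wild-type cells both were called, at 1.88-fold (adjusted p = 0.0127) and 1.66-fold higher (adjusted p = 0.0305) in limma. Without any 1 of the 4 arrays of those groups the second probe changed by 0.84 to 0.98 with an adjusted p of 0.0535 to 0.0717, and lost its call each time. The third lost it without IKKa-null array 1 (0.53, adjusted p = 0.16), wild-type array 1 (0.76, adjusted p = 0.0983) or wild-type array 2 (0.70, adjusted p = 0.129). In reconstituted cells set against IKKa-null cells the third probe was called at −0.83 (1.78-fold lower, adjusted p = 0.0351) and the second was not (−0.66, adjusted p = 0.0608); the third lost its call without any 1 of the 6 arrays, at −0.63 to −1.03 and an adjusted p of 0.0602 to 0.174. Between reconstituted and wild-type cells the second changed by 0.25 (adjusted p = 0.323) and the third by −0.10 (adjusted p = 0.716), so the call there rests on the brightest probe alone. That call was also lost without either wild-type array (0.59 and 0.76, adjusted p = 0.168 and 0.107), without either IKKa-null array (0.67, adjusted p = 0.0607) and without reconstituted array 1 (0.48, adjusted p = 0.164) in limma.

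**Figure D3:**
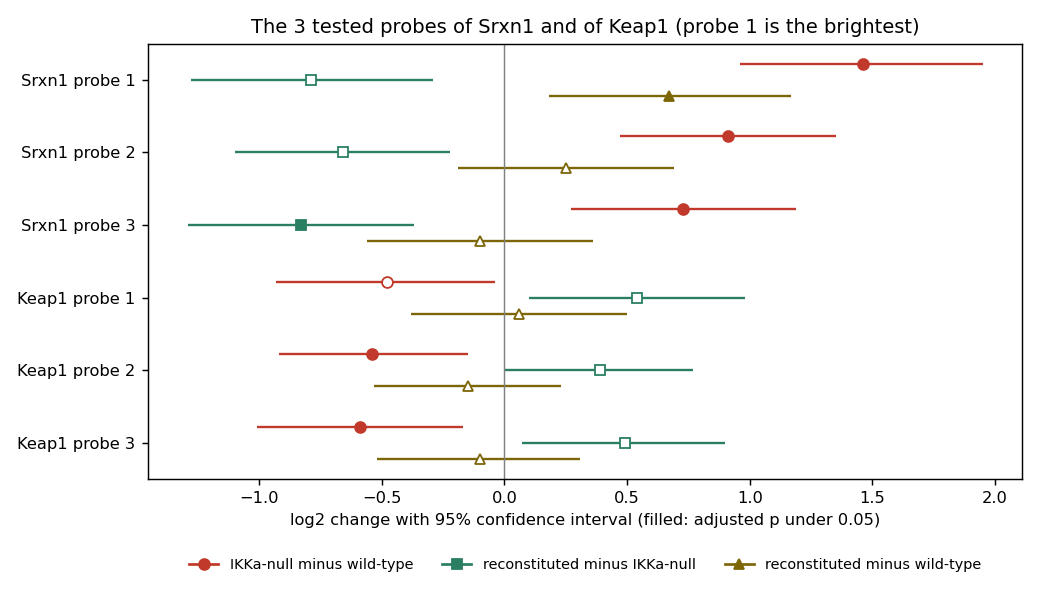
Log2 change of the 3 tested probes of Srxn1 and of Keap1 on the horizontal axis, with 95% confidence intervals, numbered from the brightest; filled symbols have an adjusted p under 0.05. Srxn1 probes 1, 2 and 3 changed by 1.46, 0.91 and 0.73 in IKKa-null cells against wild-type cells, and the Keap1 probes by −0.48, −0.54 and −0.59.

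Txnrd1 encodes cytosolic thioredoxin reductase, which uses NADPH to keep thioredoxin reduced. It read 6.45 and 6.21 on the reconstituted arrays, of which 1 was above background, 7.60 and 7.36 on the IKKa-null arrays and 6.88 and 7.51 on the wild-type arrays. Both reconstituted arrays were below the other 4, and the IKKa-null and wild-type arrays overlapped. The change was −1.15 ± 0.249 in reconstituted cells against IKKa-null cells (SE, n = 2 arrays in each group; interval −1.74 to −0.56; 2.22-fold lower; limma adjusted p = 0.0271) and −0.87 in reconstituted cells against wild-type cells (interval −1.46 to −0.28; 1.82-fold lower; adjusted p = 0.0334). In IKKa-null cells against wild-type cells it was 0.28 (interval −0.31 to 0.87, adjusted p = 0.424). The first call was lost without either IKKa-null array (−1.03 and −1.27, adjusted p = 0.14 and 0.0937) or either reconstituted array (−1.27 and −1.03, adjusted p = 0.0531 and 0.12). The second was lost without either reconstituted array (−0.99 and −0.74), without wild-type array 2 (−0.55) or without either IKKa-null array (−0.87 each), with an adjusted p of 0.0522 to 0.168.

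Nqo1 encodes a quinone reductase and is a gene often used to read Nrf2 activity. It read 6.92 and 7.25 on the reconstituted arrays, 7.56 and 8.51 on the IKKa-null arrays and 6.63 and 6.66 on the wild-type arrays. The groups did not overlap, in the order wild-type, reconstituted, IKKa-null. The IKKa-null arrays differed from each other more than those of the other groups. The wild-type signal was near background, at raw intensities of 175.4 and 202.7, where the limits were 158.3 and 178.0. The change in IKKa-null cells against wild-type cells was 1.39 ± 0.313 (SE, n = 2 arrays in each group; interval 0.65 to 2.13; 2.62-fold higher; limma adjusted p = 0.0179). The call was lost without IKKa-null array 2 (0.92, adjusted p = 0.0627), wild-type array 1 (1.38, adjusted p = 0.0767) or wild-type array 2 (1.41, adjusted p = 0.0814). Between reconstituted and IKKa-null cells the change was −0.95 (interval −1.69 to −0.21, adjusted p = 0.0962), and it was called without IKKa-null array 1 (−1.42, adjusted p = 0.0318). For reconstituted relative to wild-type cells it was 0.44 (interval −0.30 to 1.18, adjusted p = 0.3). Over the 16 alternatives the change in IKKa-null cells against wild-type cells lay between 0.89 and 1.87. A second Nqo1 probe was within background on all 6 arrays.

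Hmox1 encodes haem oxygenase 1, which breaks haem down and answers to several stress signals besides Nrf2. It read 9.84 and 9.39 on the reconstituted arrays, 10.86 and 10.46 on the IKKa-null arrays and 9.51 and 10.05 on the wild-type arrays. The IKKa-null arrays were the highest of the 6, and the other groups overlapped. Hmox1 was 1.84-fold higher in IKKa-null cells than in wild-type cells (0.88, interval 0.24 to 1.51, limma adjusted p = 0.0476) and 2.06-fold lower in reconstituted than in IKKa-null cells (−1.04, interval −1.68 to −0.41, adjusted p = 0.0465). Between reconstituted and wild-type cells the change was −0.17 (interval −0.80 to 0.47, adjusted p = 0.65). Both calls were close to the threshold. The first was lost without any 1 of the 4 arrays of those groups (0.61 to 1.14, adjusted p = 0.062 to 0.215), and the second without any 1 of the 6 arrays (−1.27 to −0.82, adjusted p = 0.0531 to 0.213).

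No glutathione member was called in any comparison, and some could not be tested. Gclm, the modifier subunit of glutamate-cysteine ligase, read 9.31 and 9.25 on the reconstituted arrays, 9.41 and 9.09 on the IKKa-null arrays and 9.63 and 9.59 on the wild-type arrays. The wild-type arrays were the highest, and the change in IKKa-null cells against wild-type cells was −0.36 (interval −0.79 to 0.07, adjusted p = 0.18 in limma), which leaves room for at most a slight rise. Gsr, glutathione reductase, read 8.60 and 8.83 on the reconstituted arrays, 9.17 and 9.0 on the IKKa-null arrays and 8.67 and 9.03 on the wild-type arrays. Its changes were 0.23 in IKKa-null cells against wild-type cells (interval −0.24 to 0.71), −0.37 in reconstituted cells against IKKa-null cells (interval −0.84 to 0.11) and −0.13 in reconstituted cells against wild-type cells (adjusted p = 0.628). Gclm changed by 0.03 in reconstituted cells against IKKa-null cells (interval −0.40 to 0.46) and by −0.33 in reconstituted cells against wild-type cells (interval −0.76 to 0.10).

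Gclc and Slc7a11 could not be tested. Gclc, the catalytic subunit of the same ligase, has 1 probe, with raw intensities of 117.3 and 94.3 on the reconstituted arrays, 101.8 and 106.7 on the IKKa-null arrays and 101.7 and 135.7 on the wild-type arrays. All were within background, below the 152.6 to 178.0 units at which targets counted as above it, so no difference was detectable at this signal. Slc7a11, the transporter that brings cystine in for glutathione synthesis, has 4 probes. The brightest read 168.7 and 141.5 units on the reconstituted arrays, 126.9 and 146.2 on the IKKa-null arrays and 121.8 and 136.6 on the wild-type arrays, and was above background on reconstituted array 1 only, where the limit was 166.5.

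Among the 7406 other tested genes, those whose 6 values lay nearest to a called member were found after each gene was centred on its own mean. Nearest to Srxn1 were Tmpo and Sh3rf3, at Euclidean distances of 0.15 and 0.24 log2 units over the 6 arrays. Nearest to Nqo1 were Cdhr1 (0.40) and Tatdn1 (0.45), to Hmox1 Med21 (0.27) and Polk (0.35), and to Txnrd1 Yod1 (0.27) and Oxr1 (0.29). The members were not each other's nearest: 262 genes were nearer to Nqo1 than the closest member, Srxn1 (1.04), and 300 genes were nearer to Srxn1 than Hmox1 (0.90). These distances describe 6 arrays of 3 genotypes and carry no test.

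Related genes were read in 7 lists, with 107 distinct genes of which 76 were tested. In IKKa-null cells against wild-type cells 16 were called higher and 7 lower, in reconstituted cells against IKKa-null cells 4 and 11, and in reconstituted cells against wild-type cells 13 and 15. Over all genes 29.0%, 14.3% and 36.9% were called in these comparisons, so the first and last totals are near the share of any gene. By direction the shares over all genes were 13.6% higher and 15.4% lower, 6.89% and 7.41%, and 15.6% and 21.3%. In the first comparison the listed genes were above that share for higher calls and below it for lower calls. The median changes of the 76 were 0.04, −0.14 and −0.13, against −0.12, −0.02 and −0.14 over all genes. Actb, a cytoskeletal gene often used as a reference, changed by −0.60 in IKKa-null cells against wild-type cells (adjusted p = 0.0402 in limma), and Gapdh, a glycolytic enzyme used likewise, by 0.18 (adjusted p = 0.496).

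**Figure D4:**
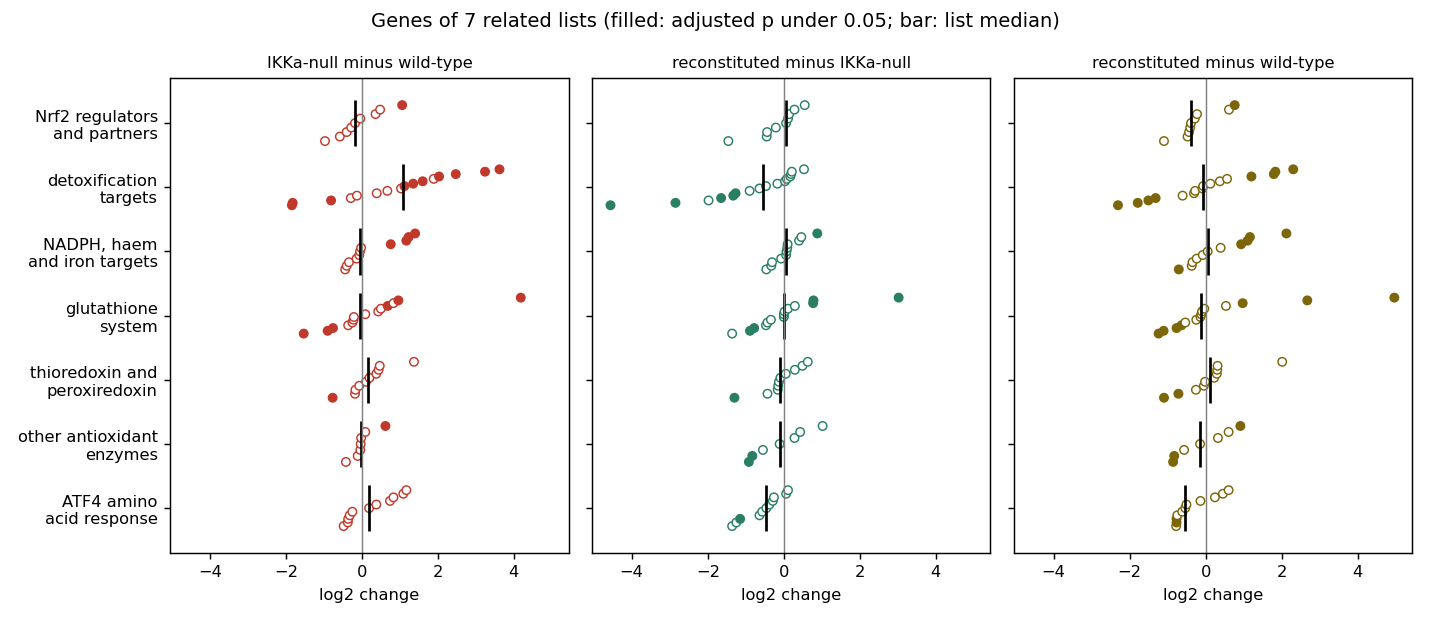
Log2 change of the tested genes of 7 related lists in each comparison on the horizontal axes; each point is a gene, filled where its adjusted p is under 0.05, and the bars are list medians. The detoxification list has a median of 1.07 in IKKa-null cells against wild-type cells (0.39 over its 7 members above background on all 6 arrays) and −0.55 in reconstituted cells against IKKa-null cells (−0.17 over those 7).

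The detoxification list was the longest tested and held the most called genes in both comparisons with wild-type cells. Of its 16 tested members, 7 were called higher and 3 called lower in IKKa-null cells than in wild-type cells, with a median of 1.07. In reconstituted cells 0 were higher and 5 lower than in IKKa-null cells, with a median of −0.55. Over all genes 13.6% were called higher and 15.4% lower in the first comparison, and 6.89% and 7.41% in the second. Without 1 array these called counts were 5 to 8 and 2 to 3 in the first comparison and 0 and 3 to 5 in the second. The medians moved with the setting: they were 0.49 and −0.32 with no background correction, and 0.39 and −0.17 over the 7 members above background on all 6 arrays, of which 3 were called higher and 1 lower in the first comparison and 0 and 3 in the second. Mgst1 and Cbr3 were above background in 1 group only and passed the filter through it, so their calls, counted above, are no independent evidence. At an unadjusted p under 0.05 that last comparison had 1 higher and 7 lower in limma. Ephx1, an epoxide hydrolase, read 10.03 and 10.33 in reconstituted cells, 11.44 and 11.57 in IKKa-null cells and 8.15 and 7.62 in wild-type cells. It was 12.3-fold higher in IKKa-null cells than in wild-type cells (limma adjusted p = 0.000177) and 2.51-fold lower in reconstituted than in IKKa-null cells (adjusted p = 0.0122), a call lost without either IKKa-null array at changes of −1.47 to −1.18. Aldh1a1, a retinaldehyde dehydrogenase, read 5.16 and 5.37 in reconstituted cells, 9.84 and 9.80 in IKKa-null cells and 6.60 and 6.57 in wild-type cells. It was 9.43-fold higher in IKKa-null cells than in wild-type cells (adjusted p = 0.000113) and at least 12.2-fold lower in reconstituted than in IKKa-null cells (adjusted p = 6.19e-05). Both reconstituted arrays were within background for Aldh1a1.

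The glutathione transferases differed among themselves. Gstm1 was 5.53-fold higher in IKKa-null cells than in wild-type cells (adjusted p = 0.0003 in limma) and also 3.55-fold higher in reconstituted than in wild-type cells (adjusted p = 0.000781). Gstm2 was 2.54-fold higher in IKKa-null cells than in wild-type cells (adjusted p = 0.00545) but 7.22-fold lower in reconstituted than in IKKa-null cells (adjusted p = 0.000441). In reconstituted cells against wild-type cells Gstm2 was 2.84-fold lower (limma adjusted p = 0.00312), the opposite direction to Gstm1. These paralogues are close in sequence, and a probe may read both. Mgst1, a membrane-bound transferase, was tested only because it was above background on the IKKa-null arrays, so its calls are no independent evidence. It was at least 1.54-fold higher in IKKa-null cells than in wild-type cells. In reconstituted cells it was at least 1.61-fold lower than in IKKa-null cells. The 3 genes called lower in IKKa-null cells, named after their values were seen, were the carbonyl reductases Cbr1 and Cbr3 and the transferase Gsta4. Cbr1 was 3.59-fold lower in IKKa-null cells than in wild-type cells (adjusted p = 0.00145) and 4.95-fold lower in reconstituted than in wild-type cells (adjusted p = 0.000526). In reconstituted cells set against wild-type cells the detoxification list had 4 higher and 4 lower, beside 15.6% higher and 21.3% lower over all genes. Its median was −0.08. Aox1 and Ugt1a6a, both higher, were within background in wild-type cells, and Cbr3 and Aldh1a1, both lower, in reconstituted cells.

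Of 11 tested genes that supply NADPH or handle haem and iron, 4 were called higher and 0 called lower in IKKa-null cells than in wild-type cells (2 to 4 and 0 without 1 array), beside 13.6% higher and 15.4% lower over all genes. The limma counts at an unadjusted p under 0.05 were the same. Slc48a1, a haem transporter, was 2.63-fold higher (adjusted p = 0.00209), and Idh1, a cytosolic source of NADPH, was 2.35-fold higher (adjusted p = 0.00783), a call lost without IKKa-null array 2 or wild-type array 2 (range over arrays left out 1.06 to 1.41). Fth1, the ferritin heavy chain, was 2.26-fold higher (adjusted p = 0.00348), though its pseudogenes may share the probe. Idh1 was higher still in reconstituted cells, by 4.34-fold against wild-type cells (adjusted p = 0.000912). In reconstituted cells set against IKKa-null cells 1 of the 11 was called higher, Idh1, and 0 lower, beside 6.89% and 7.41% of all genes. The limma counts were 2 and 1 at an unadjusted p under 0.05. That Idh1 change was 0.88, and 0.70 to 1.07 over arrays left out. Its call was lost with median scaling or with no filter on dim probes. The list median was −0.05, 0.07 and 0.05 in the 3 comparisons, near 0.

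In the glutathione list, 3 of 14 tested genes were called higher and 3 called lower in IKKa-null cells than in wild-type cells, beside 13.6% and 15.4% of all genes, with a median of −0.06; without 1 array there were 1 to 3 in each direction. Between reconstituted and IKKa-null cells 3 were higher and 2 lower, with a median near 0, and without 1 array 1 was higher and 0 to 1 lower. Glrx, the cytosolic glutaredoxin, read 10.99 and 11.21 in reconstituted cells, 10.32 and 10.34 in IKKa-null cells and 5.99 and 6.30 in wild-type cells, where 1 array was above background. It was 18.2-fold higher in IKKa-null cells than in wild-type cells (adjusted p = 6.81e-05 in limma) and 31.1-fold higher in reconstituted than in wild-type cells (adjusted p = 3.04e-05). Gpx1, the main cytosolic glutathione peroxidase, was 2.89-fold lower in IKKa-null cells than in wild-type cells (adjusted p = 0.00161) and 2.37-fold lower in reconstituted than in wild-type cells (adjusted p = 0.00301). Both genes thus separated wild-type cells from the other groups. Gpx7, a peroxidase of the endoplasmic reticulum, was within background on the 4 IKKa-null and wild-type arrays. It was tested only because it was above background on the reconstituted arrays. There it was at least 4.68-fold higher than in IKKa-null cells. It is 1 of the 3 genes called higher in that comparison, and its call is no independent evidence. The same limit holds for Gss, glutathione synthetase, 1 of the 2 called lower. It was within background on both reconstituted arrays and at least 1.27-fold lower there. Over all genes 6.89% were called higher and 7.41% lower between reconstituted and IKKa-null cells.

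For the short lists that follow, 13.6% of all genes were called higher and 15.4% lower in IKKa-null cells against wild-type cells. The shares were 6.89% and 7.41% in reconstituted cells against IKKa-null cells, and 15.6% and 21.3% against wild-type cells. Among 9 tested regulators and partners of Nrf2, 1 was called higher in IKKa-null cells than in wild-type cells and 0 lower. The limma counts were 2 and 0 at an unadjusted p under 0.05. The called gene was Sqstm1, whose product p62 binds Keap1 and which is itself a target of Nrf2. It read 12.28 and 11.65 in reconstituted cells, 12.59 and 12.25 in IKKa-null cells and 11.55 and 11.17 in wild-type cells, and was 2.09-fold higher in IKKa-null cells than in wild-type cells (adjusted p = 0.0269). That call was lost without any 1 of the 4 arrays of those groups (0.87 to 1.25). Between reconstituted and IKKa-null cells 0 regulators were called in either direction, with 0 higher and 1 lower at an unadjusted p under 0.05. Of 10 thioredoxin and peroxiredoxin genes, 0 were called higher and 1 lower in IKKa-null cells against wild-type cells, the same counts as at an unadjusted p under 0.05 in limma. The called gene was Msrb1, a methionine sulfoxide reductase, at 1.71-fold lower (adjusted p = 0.0269), a call lost without any 1 of the 4 arrays of those groups (−0.90 to −0.64). Txn2, mitochondrial thioredoxin, was 2.47-fold lower in reconstituted than in IKKa-null cells (adjusted p = 0.0146), a call lost without either IKKa-null array (range over arrays left out −1.62 to −0.98). Of 7 other antioxidant enzymes, 1 was higher and 0 lower in IKKa-null cells against wild-type cells, with the same counts at an unadjusted p under 0.05 in limma. It was Nqo2, a quinone reductase related to Nqo1, at 1.54-fold higher (adjusted p = 0.0314), and its call too was lost without any 1 of those 4 arrays (0.57 to 0.68). Reconstituted cells had 0 of the 7 higher and 2 lower than IKKa-null cells, with 1 and 3 at an unadjusted p under 0.05 in limma, and 1 higher and 2 lower than wild-type cells. The 2 lower genes, in both cases, were Park7, which protects cells from oxidants, and Pon2, a lactonase; against IKKa-null cells they were 1.78-fold (adjusted p = 0.0204) and 1.89-fold lower (adjusted p = 0.0466). Leaving out 1 array kept the first call in 2 of 6 cases and the second in 1 of 6.

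Slc7a11 is driven by ATF4, the factor of the amino acid response, as well as by Nrf2. The 11 tested genes of the ATF4 response count Atf4 itself and share Chac1 and Slc3a2 with the glutathione list. Of these, 0 were called in IKKa-null cells against wild-type cells in limma, beside 29.0% of all genes. At an unadjusted p under 0.05 there were 1 higher and 0 lower. The median was 0.19, and without 1 array it lay between −0.31 and 0.23. In reconstituted cells set against IKKa-null cells 0 were called higher and 1 lower, beside 6.89% and 7.41% of all genes. The counts were the same at an unadjusted p under 0.05 in limma. The median was −0.46, and without 1 array it lay between −0.78 and −0.02. The gene called was Phgdh, which starts serine synthesis, at 2.22-fold lower (adjusted p = 0.0178); its call was lost without either IKKa-null array or reconstituted array 2 (range over arrays left out −1.33 to −0.97). Between reconstituted and wild-type cells 0 were called higher and 2 lower, beside 15.6% and 21.3% of all genes, so the lower count is near the share of any gene. At an unadjusted p under 0.05 in limma the counts were 0 and 5. The median was −0.54, and without 1 array it lay between −1.07 and 0.17.

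**Figure D5:**
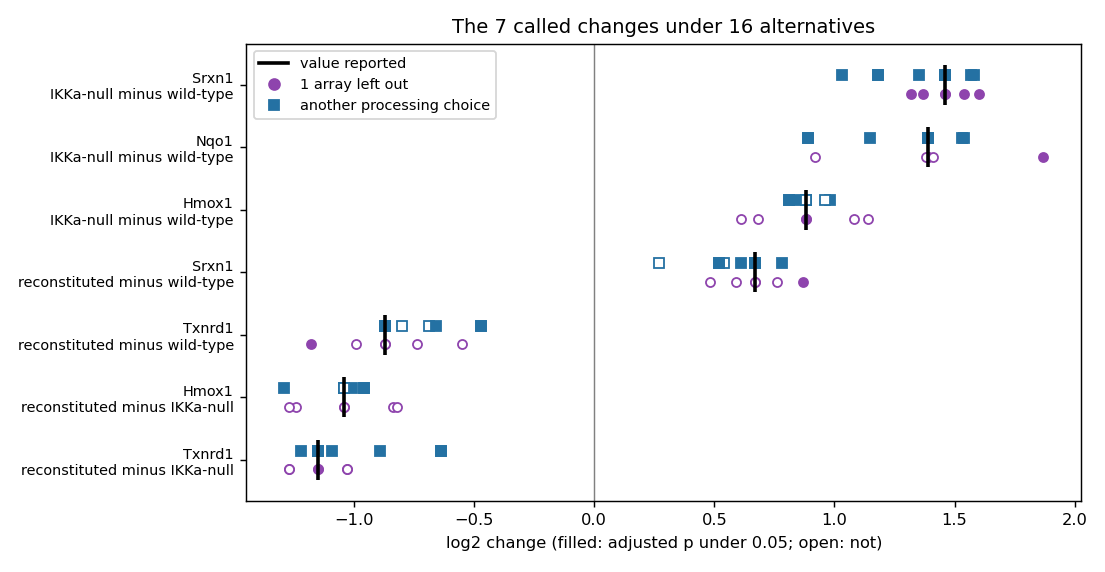
Log2 changes of the 7 called member changes under alternatives on the horizontal axis: circles leave out 1 array, squares change a processing choice, black bars are the values reported, and open symbols have lost the call. Of 110 such values 39 lost the call and 0 changed sign; Srxn1 in IKKa-null cells against wild-type cells lost none. Txnrd1 has 15 alternatives for each change and the others 16.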

How the data were processed

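Intensities from 6 Illumina bead arrays of mouse embryonic fibroblasts were analysed, grouped and numbered as their titles state. Per the file headers, the authors exported each deposited intensity from BeadStudio 1.5.0.34 without normalization. The deposited series matrix holds the same intensities after quantile normalization, as its values show, and it served to name targets and as an alternative. Of 46120 targets, 46116 were matched to a matrix probe by rank and value, and 29534 carry 1 gene symbol in the platform annotation, 11 several and 16575 none. Coordinates are those of the promoter table alone; no build is named for the array.

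Background was corrected in limma 3.58.1 under R 4.3.3 (nec) with 394 background targets (352 immune receptor segments, 42 controls) and an offset of 16, which understates changes of dim genes. Quantile normalization and log2 followed. A probe was above background where under 1% of background targets were at or above it, and was tested if above background on 2 arrays or more, which kept 11658 probes of 7407 genes. Group means were fitted with lmFit and eBayes over all 6 arrays (3 residual degrees of freedom, prior 3.97), two-sided, with Benjamini-Hochberg adjustment. A gene was represented by its brightest probe; probes of different genes were not set against each other. Where a group was within background on both arrays, a fold is a bound: the bright group's mean over the dim group's mean of, on each array, the higher of the probe's signal and the lowest signal above background. Depth here is signal over background: array medians were 111.1 to 123.1 intensity units, and those of the background targets 100.8 to 114.45. Precision is limited by having 2 arrays in each group. Named genes were all members, up to 4 called genes of a list by size, up to 2 others as values, the 2 genes nearest to each called member, Actb and Gapdh. Xist, the cell type markers, Cbr3, Gsta4, Aox1, Ugt1a6a and Gsta2 were named after their values were seen. The members and lists were chosen with earlier results of these data known.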

Additional observations from a re-analysis of the deposited data

How the results depend on the processing

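No called member change reversed under the 16 alternatives, but 39 of 110 such values lost the call, most without 1 array, and the cause was not tested. Of 378 member values in all, 313 kept direction and call, 39 lost a call, 12 gained one and 14 changed sign, none of these called. Called members in IKKa-null against wild-type cells numbered 1 to 3 without 1 array; in reconstituted against IKKa-null cells they numbered 0 to 1 without 1 array, 0 with no filter on dim probes, 1 with the replicate block, and 3 each with the mean of a gene's probes, a mean-variance trend, no background correction, the series matrix values or an offset of 50; in reconstituted against wild-type cells they numbered 0 to 1 without 1 array, 1 with cyclic loess, the mean of probes or only probes above background on all 6 arrays, and 0 with median scaling or no filter. Probes called numbered 3373, 1555 and 4240 in the 3 comparisons in that order, 1485 to 3495, 545 to 1265 and 2074 to 3746 without 1 array, and 1894, 924 and 2361 with median scaling, where 1333 were higher and 561 lower in IKKa-null against wild-type cells, beside 1744 and 1629, and 350 and 574 in reconstituted against IKKa-null cells, beside 753 and 802. That scaling moved the median change of all probes so that it was 0.04, −0.17 and −0.13, and it was −0.07, −0.01 and −0.08 under quantile normalization. Changes that reversed were small: Gclm in reconstituted against IKKa-null cells was −0.18 with median scaling and −0.13 to 0.19 without 1 array, and Keap1 in reconstituted against wild-type cells was −0.10 with median scaling, −0.06 as the mean of its probes and −0.10 to 0.21 without 1 array. Without 1 array, Nfe2l2 in reconstituted cells lay between −0.91 and 0.19 against IKKa-null cells and between −0.46 and 0.65 against wild-type cells. In the same setting Gsr lay between −0.31 and 0.05 and Hmox1 between −0.43 and 0.10 for reconstituted against wild-type cells, and Txnrd1 between −0.03 and 0.60 for IKKa-null against wild-type cells. In the labels, arrays of different groups with the same replicate number share only that number. Their deviations correlated at 0.369 between IKKa-null and reconstituted cells and 0.297 between IKKa-null and wild-type cells. Between reconstituted and wild-type cells the correlation was 0.0507, each over 11658 probes. What same-numbered arrays may have in common was not tested. With the replicate block, 3610, 1668 and 4517 probes were called, and Hmox1 lost its calls at adjusted p of 0.0545 and 0.054 in limma. Where an array is left out, the lone array of its group is assumed to vary like the others. Dim probes, Nfe2l2, Gclc and Slc7a11 among them, are limited by signal over background.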

Other observations

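For 3 stress-response genes of the lists, the array numbered 1 held the higher value in each group. Atf3, a stress-induced transcription factor, read 7.85 and 4.67 on the reconstituted arrays, 8.74 and 5.06 on the IKKa-null arrays and 6.30 and 5.31 on the wild-type arrays. Txnip, which binds thioredoxin, read 11.90 and 10.36 on the reconstituted arrays, 11.38 and 9.61 on the IKKa-null arrays and 10.00 and 8.24 on the wild-type arrays. Ddit3, a target of ATF4, read 9.43 and 7.90 on the reconstituted arrays, 10.50 and 9.32 on the IKKa-null arrays and 9.66 and 8.68 on the wild-type arrays. These genes were picked after their values were seen, and the labels do not say what the replicate number marks.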
